A study of Mus musculus with 12 samples.

Results

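The genes for the microRNA processing and silencing machinery were compared in the septum of lactating and virgin mice. The 10 genes were found by their symbol in the array's gene table: Drosha, Dgcr8, Xpo5, Dicer1, Tarbp2, Ago1, Ago2, Tnrc6a, Tnrc6b and Tnrc6c. They are measured by 12 of the 35556 transcript clusters of the array, a transcript cluster being the group of probes assigned to 1 transcribed region, and Tarbp2 and Ago2 have 2 clusters each. All 12 mice were adult females of about 70 days from a line bred for high maternal aggression out of outbred hsd:ICR stock, fed breeder chow, and each gave 1 array. The 6 lactating mice had been housed with a male for 2 weeks and were dissected on postpartum days 6 to 8. The 6 virgin mice were of the same age and had been co-housed for that time. After that all females, pregnant and virgin, were housed singly until dissection. No virgin mouse was in proestrus, and their other stages were mixed. The line limits what the arrays can say of other strains, and lactating mice differed from virgin mice in mating, pregnancy, parturition and contact with pups at once.

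MicroRNAs are made from long primary transcripts in steps. In the nucleus the RNase III enzyme Drosha and its RNA-binding partner Dgcr8, together called the Microprocessor, cut out a hairpin, which Xpo5 (exportin 5) carries to the cytoplasm. There Dicer1, helped by Tarbp2, cuts the hairpin to a short duplex, and 1 strand is loaded into an argonaute protein such as Ago1 or Ago2. Argonaute binds messenger RNAs that match the microRNA, and the GW182 proteins encoded by Tnrc6a, Tnrc6b and Tnrc6c recruit the enzymes that shorten the poly(A) tail and remove the cap. Ago2 can also cut a matching RNA itself. In neurons this machinery is present in cell bodies and dendrites, and loss of Dicer1 or Dgcr8 impairs the forebrain.

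The transcript of Dgcr8 is itself a target of the Microprocessor, because it holds a hairpin that Drosha cuts. In the RefSeq annotation of GRCm38.p6, Dgcr8 lies on chr16:18253948-18289251, minus strand, and the hairpin of Mir1306 lies inside it at chr16:18284239-18284317 on the same strand. The hairpin and its mature arms are shown because they are the product that the first members of the pathway cut from a member's own transcript. Capitals mark the mature arms in the hairpin of 79 bases, and the seed (bases 2 to 8) in each arm.
Mir1306 hairpin: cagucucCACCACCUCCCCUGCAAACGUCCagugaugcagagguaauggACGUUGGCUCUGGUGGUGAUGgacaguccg
mmu-miR-1306-5p: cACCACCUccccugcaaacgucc
mmu-miR-1306-3p: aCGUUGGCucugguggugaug

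No member of the machinery differed between lactating and virgin mice beyond the spread between mice. Of the 12 clusters, 0 had an unadjusted p under 0.05 from limma, where 7.95% of all clusters did. Below 0.0025, the threshold of the study, there were 0 members and 0.337% of all clusters, and 0 members had an adjusted p under 0.05, as for 0% of all clusters. An exact permutation test that ran through all 924 ways to label the mice, and that cannot give a p below 0.00216, gave p = 0.212 or more for every cluster. In 8 clusters the lactating mean was the higher and in 4 the lower, but these signs depend on the scaling: after quantile normalization or cyclic loess 5 of the 12 turned (Xpo5, Dicer1, Ago1 and 1 cluster each of Ago2 and Tarbp2). Differences are of log2(intensity + 16), lactating minus virgin, and ran from −0.038 for Tarbp2 to 0.046 for Dgcr8, with a median of 0.018. Over all clusters the median was −0.0093, and over clusters above the median intensity, which include 11 of the 12, it was 0.016. The groups overlapped in all 12 clusters, while they did not overlap in 0.394% of all clusters. In whole tissue, fewer cells of a type and less RNA per cell cannot be told apart.

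**Figure D1:**
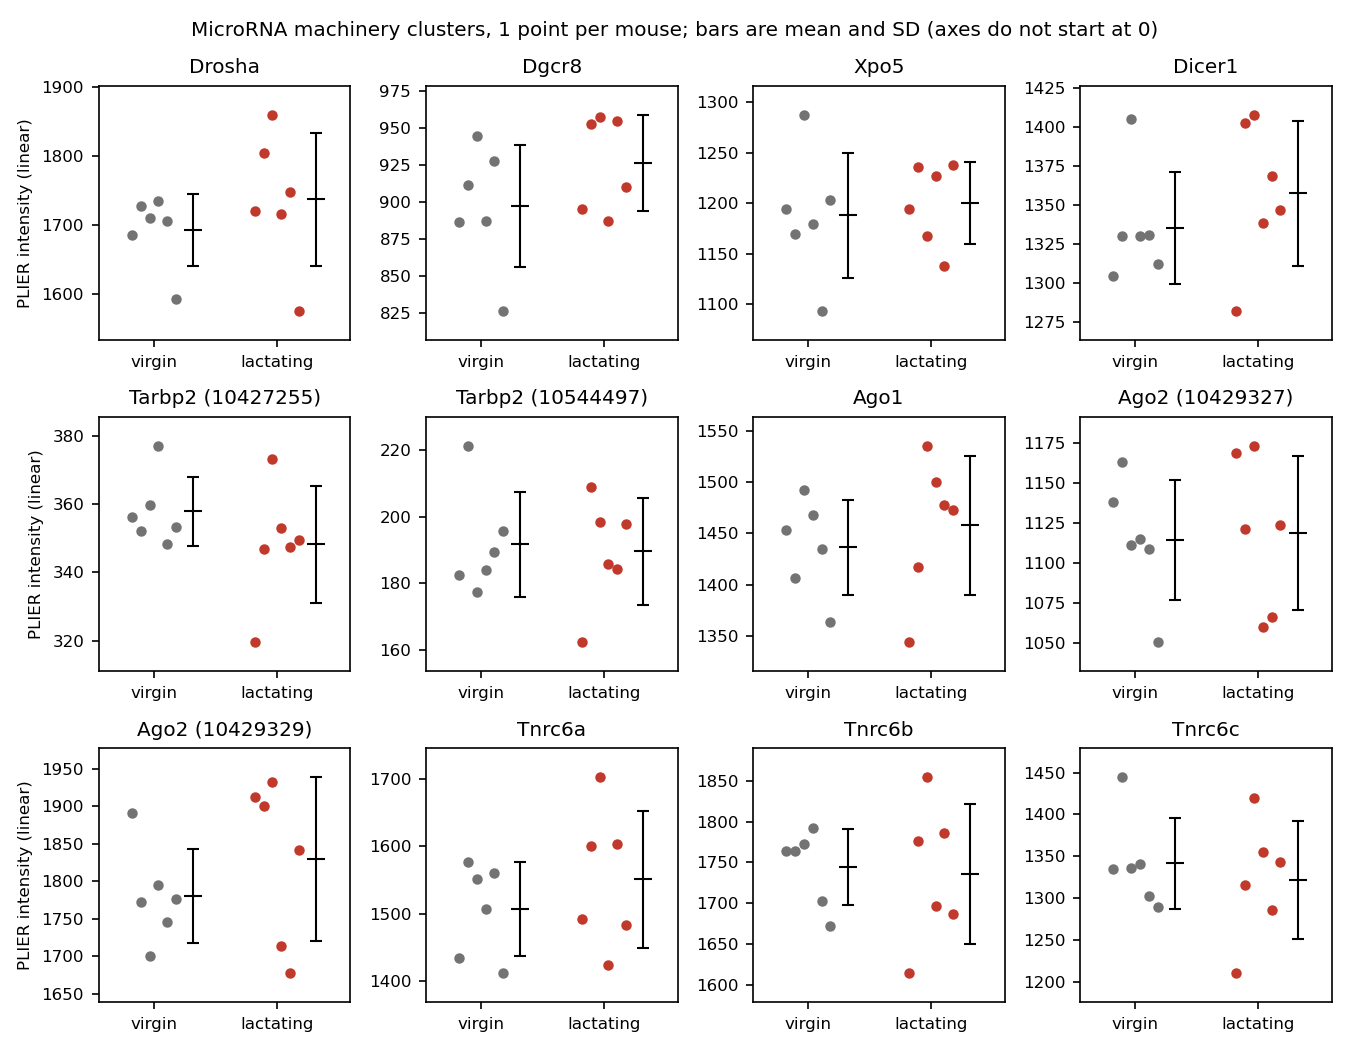
PLIER intensity (vertical axes, linear scale, not starting at 0) of the 12 clusters in each mouse, drawn as a point, grey for the 6 virgin and red for the 6 lactating animals, with mean and SD beside the points. The groups overlap in every panel, and for Drosha the lactating mice span 1575 to 1859 around virgin mice at 1592 to 1735.

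Both Microprocessor genes had a slightly higher mean in lactating mice, and neither passed the test. Drosha ranged from 1575 to 1859 in lactating mice, with a median of 1734, and from 1592 to 1735 in virgin mice, with a median of 1708. Of the 6 lactating mice, 3 were above every virgin mouse, and 1 was below every virgin mouse. The mean was 1737 ± 96.4 (SD, n = 6) against 1693 ± 52.0 (SD, n = 6), a log2 difference of 0.036 ± 0.042 (SE; limma unadjusted p = 0.417, adjusted p = 0.782). Its 95% interval ran from a fall of 3.81% to a rise of 9.21%.

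Dgcr8 ranged from 887 to 958 in lactating mice, with a median of 932, and from 826 to 945 in virgin mice, with a median of 899. Again 3 of the 6 lactating mice were above every virgin mouse, and the lowest value of all was that of virgin mouse 6. The mean was 926 ± 32.4 (SD, n = 6) against 897 ± 41.5 (SD, n = 6), or 3.23% higher. This was the largest difference among the 12 clusters, at 0.046 ± 0.040 (SE), and its limma p was 0.273 unadjusted and 0.714 adjusted. The interval of Dgcr8 allowed a rise of at most 9.57% and a fall of at most 2.77%. Dgcr8 shares 825 bases of its span with Trmt2a on the opposite strand, and whether the probes lie there was not tested.

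The 250 bases before the start of Drosha (GRCm38.p6, chr15:12824565-12824814, plus strand) are shown because Drosha was the 1 member whose window held the exact letters CCGGAAG. They are a form of the ETS site, the site class of ELK1, a factor named in the enrichment part of the study. Other forms of the site were not searched. Capitals mark the match, which is on the minus strand. It lies 154 bases before the start.
Drosha: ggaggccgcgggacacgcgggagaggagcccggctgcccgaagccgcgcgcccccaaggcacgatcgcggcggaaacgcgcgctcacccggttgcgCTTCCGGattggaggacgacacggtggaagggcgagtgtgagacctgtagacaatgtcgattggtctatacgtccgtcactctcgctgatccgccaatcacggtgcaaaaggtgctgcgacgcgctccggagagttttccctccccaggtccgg

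Xpo5, which exports the hairpin together with the GTPase Ran, had nearly equal means of 1200.1 ± 40.9 (SD, n = 6) in lactating and 1188 ± 62.5 (SD, n = 6) in virgin mice. It ranged from 1138 to 1238 in lactating mice, with a median of 1211, and from 1093 to 1287 in virgin mice, with a median of 1187. All lactating mice thus lay within the range of virgin mice. The log2 difference was 0.016 ± 0.042 (SE; limma unadjusted p = 0.714, adjusted p = 0.908), with an interval from −5.02% to 7.59%. The 250 bases before its start (GRCm38.p6, chr17:46202561-46202810, plus strand) are printed because they hold the palindromic NRF1 motif of 10 letters at 85 and at 62 bases before the start, both in capitals. NRF1 is another factor that the enrichment part of the study names.
Xpo5: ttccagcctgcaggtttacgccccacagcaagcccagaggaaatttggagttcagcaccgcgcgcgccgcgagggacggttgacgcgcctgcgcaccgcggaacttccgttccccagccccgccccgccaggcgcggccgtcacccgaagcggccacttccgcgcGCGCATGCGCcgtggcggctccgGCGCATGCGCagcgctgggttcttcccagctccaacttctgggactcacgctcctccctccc

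Promoter windows were found for 9 of the 10 members, 11 windows in all, each of 250 bases before and 50 after a RefSeq start. Each motif was searched on both strands in the exact letters given, N being any base. Looser forms of a site were not counted. The NRF1 motif, as in the capitals of Xpo5, was in 1 of the 11 windows and in 0.971% of all 32851 windows. The ETS letters CCGGAAG were in 1 of them and in 8.86% of all windows. The YY1 motif GCCATNTTG was in 1, the downstream start of Tnrc6b, and in 2.51% of all. The E4F1 motif GTGACGT was in 0 of the 11 windows, against 3.85% of all, and the TATA box TATAAA in 0, against 13.6% of all. The CCAAT box (CCAAT) was in 7 windows of 6 members, against 37.4% of all windows. The windows of Ago1 overlap each other and hold the same CCAAT site, which is counted in both. The member windows ranged from 44.7% GC for Tnrc6a to 77.3% for Dicer1, with a median of 71.3%, while the median of all windows was 52.7%. The Tnrc6a window, chr7:123123635-123123934, belongs to a start inside the gene, which spans chr7:123031101-123195296 on the plus strand. The Tarbp2 window, chr15:102517942-102518241, likewise belongs to a start inside its gene, which spans chr15:102516077-102523676 on the plus strand. The starts of Tnrc6c, Ago1, Dgcr8, Dicer1 and Drosha lay inside their gene spans by fewer bases. A match describes letters and not a bound site.

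In the cytoplasmic step, Dicer1 and Tarbp2 had differences of opposite sign, neither of which passed the test. Dicer1 ranged from 1282 to 1408 in lactating mice, with a median of 1358, and from 1305 to 1406 in virgin mice, with a median of 1330. In virgin mice the other values stood close together at 1305 to 1331, and virgin mouse 3 was above them at 1406. Dicer1 had the smallest standard error of the 12 clusters. Its log2 difference was 0.023 ± 0.035 (SE; limma unadjusted p = 0.514, adjusted p = 0.826), with an interval of −3.50% to 7.02%.

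The main cluster of Tarbp2, a partner of Dicer1 that binds double-stranded RNA, was lower on average in lactating mice. It ranged from 319.6 to 373 there, with a median of 348, and from 348 to 377 in virgin mice, with a median of 355. In 3 lactating mice the value was under that of all virgin mice, and in 1 it was above the virgin median. The log2 difference was −0.038 ± 0.039 (SE; limma unadjusted p = 0.338, adjusted p = 0.747; exact permutation test, p = 0.268). The second cluster, 10544497, was the 1 cluster not above the median intensity of the array. It ranged from 162 to 209 in lactating mice and from 177 to 221 in virgin mice, with a difference of −0.015 ± 0.062 (SE), the largest standard error of the 12. The gene table assigns it to Tarbp2, but the positions of its probes were not analysed here, so a match to another locus was not tested. Tarbp2 shares 928 bases of its span with Map3k12 on the opposite strand, and whether this enters its signal was not tested. The interval of the main cluster ran from −8.11% to 3.18%.

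The argonaute genes encode the proteins that hold the microRNA. Ago1 ranged from 1344 to 1535 in lactating mice, with a median of 1476, and from 1363 to 1493 in virgin mice, with a median of 1444. Lactating mouse 1 was below every virgin mouse and 2 lactating mice were above every virgin mouse. The log2 difference was 0.021 ± 0.039 (SE; limma unadjusted p = 0.610, adjusted p = 0.870).

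Ago2, the argonaute that can cut its target, is on the array with 2 clusters. Cluster 10429329 ranged from 1678 to 1932 in lactating mice, with a median of 1871, and from 1701 to 1891 in virgin mice, with a median of 1775. The lactating mice lay on both sides of the virgin mice, with 3 above every virgin mouse and 1 below, and their SD of 108.6 (n = 6) stood beside 63.0 (n = 6) in virgin mice. Cluster 10429327 ranged from 1060.2 to 1173 in lactating mice and from 1050.4 to 1164 in virgin mice. The log2 differences were 0.038 ± 0.045 (SE; limma unadjusted p = 0.413) and 0.0052 ± 0.039 (SE; limma unadjusted p = 0.896), each smaller than its standard error. The adjusted p from limma was 0.780 and 0.968.

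Ago1 lies on chr4:126435012-126468707 of GRCm38.p6, between the other argonaute genes Ago3 (chr4:126326994-126431670) and Ago4 (chr4:126489487-126533586), all on the minus strand. Gaps of 3341 and 20779 bases separate them. Ago2 is apart from them on chr15:73101625-73184947. The neighbours of Ago1 did not pass the test either, with log2 differences of 0.062 ± 0.053 (SE) for Ago3 and 0.014 ± 0.040 (SE) for Ago4. Their limma p was 0.264 and 0.731, unadjusted.

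The GW182 genes, whose proteins bind argonaute and bring in the deadenylases, had differences of both signs. Tnrc6a ranged from 1424 to 1702 in lactating mice, with a median of 1546, and from 1412 to 1577 in virgin mice, with a median of 1529. Its 3 highest lactating mice were above every virgin mouse, and the other 3 were below the virgin median. The log2 difference was 0.040 ± 0.049 (SE; limma unadjusted p = 0.431, adjusted p = 0.787), and its interval reached furthest of the 12 on the higher side, to 10.6%.

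Tnrc6b ranged from 1614 to 1854 in lactating mice, with a median of 1737, and from 1672 to 1792 in virgin mice, with a median of 1764. The lowest and the highest of the 12 values were both lactating mice. Tnrc6c ranged from 1211 to 1419.9 in lactating mice, with a median of 1330, and from 1289 to 1444 in virgin mice, with a median of 1336. The differences were −0.0083 ± 0.039 (SE; limma unadjusted p = 0.836) for Tnrc6b and −0.022 ± 0.043 (SE; limma unadjusted p = 0.622) for Tnrc6c.

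**Figure D2:**
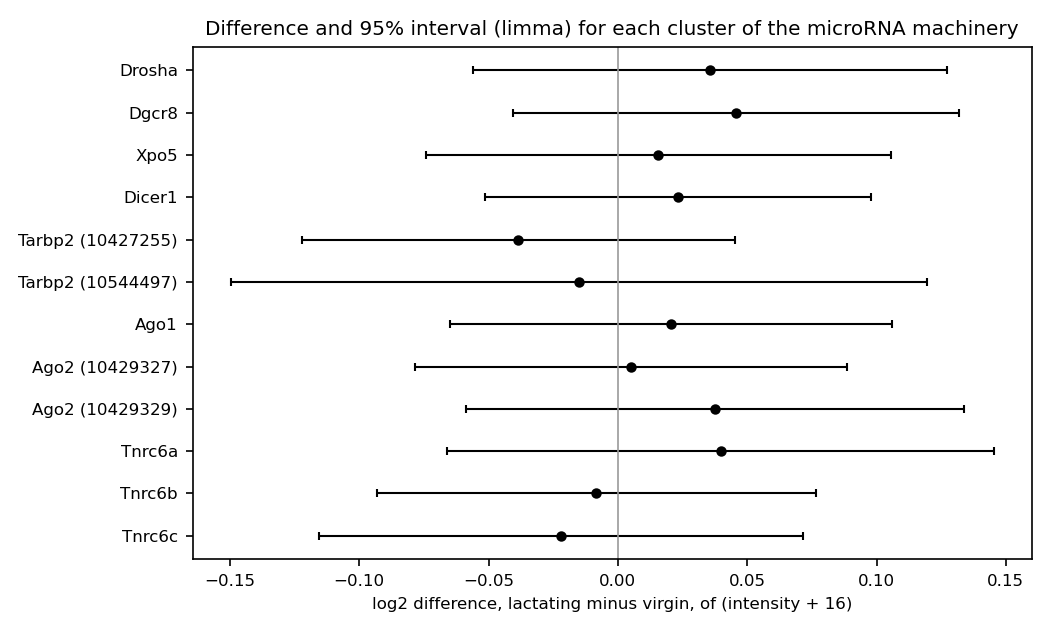
Log2 difference of (intensity + 16), lactating minus virgin (horizontal axis), for each of the 12 clusters, with 95% intervals from limma. Every interval includes 0, and the widest, for Tarbp2 cluster 10544497, runs from −0.150 to 0.120.

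Across the 12 clusters, the 95% intervals ran from −9.86% at the lowest to 10.6% at the highest, and from −8.11% without Tarbp2 cluster 10544497. Each interval is that of a single cluster and was not widened for the number of clusters. The within-group SD of the member clusters had a median of 0.061 on the log2 scale and ranged from 0.044 to 0.111. Over all clusters its median was 0.108, and over those above the median intensity 0.083. A p that misses the threshold does not show equal levels.

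Single mice stood high or low across many members. Lactating mouse 3 had the highest of the 12 values in 8 of the 12 clusters and was above the mean of all mice in 11, Xpo5 being the exception. Lactating mouse 1 had the lowest value in 6 clusters, and virgin mouse 6 in 3. The mean deviation over the 12 clusters was 0.079 in lactating mouse 3, −0.055 in lactating mouse 1 and −0.052 in virgin mouse 6. Lactating mice spanned −0.055 to 0.079 and virgin mice −0.052 to 0.029, so the groups overlapped. The median log2 value of the clusters above the median intensity was also highest in lactating mouse 3, at 0.044 above the average mouse, while its array median was 324 in a range of 319.6 to 339, and their part in the pattern was not tested. Without lactating mouse 3, or without any other single mouse, the count of member clusters at an unadjusted p under 0.05 from limma was 0.

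**Figure D3:**
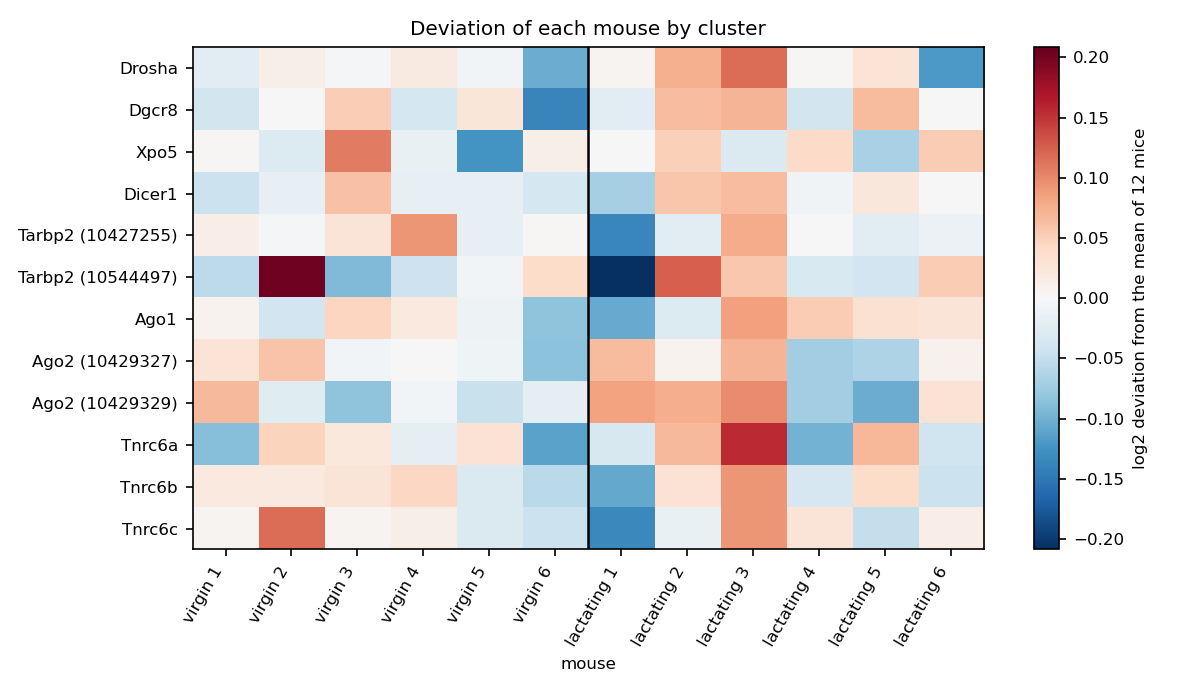
Log2 deviation of each mouse (columns, 6 virgin then 6 lactating) from the mean of the 12 mice for each cluster (rows), red above and blue below. Lactating mouse 3 is above the mean in 11 of 12 clusters, and lactating mouse 1 holds the lowest value in 6.

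Outside the machinery, 5 of 19928 genes had the deviations from the group means that were most like the average of the members over the 12 arrays. They were Dst (Pearson r = 0.958, Spearman rho = 0.944), Cnot1 (0.955 and 0.944), Tsc1 (0.946 and 0.874), Tnks (0.938 and 0.902) and Plekha6 (0.932 and 0.951). These are the highest of many correlations and are given as a description, with no p. Not every member followed this average. The correlation of a member with the mean of the other members was −0.055 for Xpo5 and −0.037 for Ago2 cluster 10429329. For the rest it ran from 0.597 for Drosha to 0.902 for Tnrc6b. Cnot1 encodes the scaffold of the deadenylase complex that GW182 proteins recruit, and its difference between the groups was −0.014 (limma unadjusted p = 0.690). A second cluster that the gene table assigns to Cnot1, whose probe positions were likewise not analysed here, had a difference of 0.050 ± 0.049 (SE). Between lactating and virgin mice the 5 genes had unadjusted p from limma of 0.127 or more.

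Among 54 other genes of the microRNA pathway, 5 were higher and 2 were lower in lactating mice with a limma p under 0.05 before adjustment, and 47 did not pass. That is 13.0% of the list, where 7.95% of all clusters passed, 3.26% higher and 4.69% lower. Of the 46 genes above the median intensity, 5 were higher, or 10.9%, where 4.92% of all such clusters were higher and 2.19% lower. No gene of the list passed an adjusted p under 0.05 (limma, smallest adjusted p = 0.619). The median log2 difference of the list was 0.029, against 0.016 over clusters above the median intensity and −0.0093 over all clusters. The list was chosen with earlier results of these data known, and its share supports nothing by itself. One cluster per gene was counted, the one with the highest mean intensity.

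The genes that were higher were cofactors of processing and partners of the silencing complex. Among 8 processing cofactors 3 were higher. Srrt, which links the cap-binding complex to primary microRNA processing, ranged from 1201 to 1389.8 in lactating mice, with a median of 1283, and from 1132 to 1233 in virgin mice, with a median of 1168. Of the 6 lactating mice, 4 were above every virgin mouse. The log2 difference of Srrt was 0.12 ± 0.043 (SE; limma unadjusted p = 0.0168, adjusted p = 0.619; exact permutation test, p = 0.0130).

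Ran, the GTPase that loads and unloads Xpo5, ranged from 1592 to 1696 in lactating mice, with a median of 1651, and from 1315 to 1617 in virgin mice, with a median of 1533. All lactating mice were above the virgin median and 5 were above every virgin mouse, while virgin mice spread more widely. The log2 difference was 0.13 ± 0.051 (SE; limma unadjusted p = 0.0244; exact permutation test, p = 0.00866). Adarb1, an enzyme that edits adenosine to inosine in glutamate receptor transcripts and in some primary microRNAs, ranged from 1447 to 1616 against 1281 to 1467. It had a difference of 0.13 ± 0.044 (SE; limma unadjusted p = 0.0108; exact permutation test, p = 0.00866), with 5 of 6 lactating mice above every virgin mouse.

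Among 11 partners of the silencing complex, Ipo8 and Fxr1 were higher. Ipo8, an importin that binds argonaute proteins, ranged from 1015 to 1084 in lactating mice and from 879.6 to 1032 in virgin mice, a difference of 0.12 ± 0.042 (SE; limma unadjusted p = 0.0114; exact permutation test, p = 0.00649). Fxr1, an RNA-binding relative of the fragile X protein Fmr1, ranged from 1348 to 1584 against 1283 to 1400.3, a difference of 0.10 ± 0.043 (SE; limma unadjusted p = 0.0357; exact permutation test, p = 0.0260). The call of Fxr1 was lost after quantile normalization and cyclic loess, with log2 differences of 0.077 and 0.076. It was also lost without lactating mouse 1, 2 or 3 or virgin mouse 1 or 6, with log2 differences of 0.079, 0.096, 0.089, 0.098 and 0.084. The calls of Srrt, Adarb1, Ran and Ipo8 held when each array was left out in turn and under every other setting tried. Fmr1 itself had a difference of 0.051 ± 0.042 (SE; limma unadjusted p = 0.241). Tsn, also among the 11 partners, had a lower mean in lactating mice and just missed the threshold. Its log2 difference was −0.10 ± 0.047 (SE; limma unadjusted p = 0.0512; exact permutation test, p = 0.0411). In 4 lactating mice Tsn was below every virgin mouse.

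Of 11 deadenylation genes and 10 genes of decapping and decay, 0 passed an unadjusted p under 0.05 from limma in either direction, with median log2 differences of 0.028 and 0.019. With so few genes this is near the 7.95% of all clusters that passed, and the roles were not tested against each other. The deadenylation genes ranged from −0.014 for the scaffold Cnot1 to 0.089 for Cnot9 (exact permutation test, p = 0.0476), and those of decapping and decay from −0.063 for the exonuclease Xrn1 to 0.086 for the decapping enzyme Dcp2.

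In the main fit, over all clusters, the genes that were lower were not above the median intensity of the array. Trim71, a regulator of embryonic progenitors that is a target of let-7, ranged from 176 to 211 in lactating mice, with a median of 191, and from 183 to 247 in virgin mice, with a median of 223. None of the 6 lactating mice was above the virgin median, while 1 was below every virgin mouse. The difference was −0.18 ± 0.069 (SE; limma unadjusted p = 0.0218; exact permutation test, p = 0.0368). Piwil2, an argonaute relative that works in the germline, ranged from 172 to 199 against 191 to 224, a difference of −0.11 ± 0.048 (SE; limma unadjusted p = 0.0345; exact permutation test, p = 0.0346). Clusters not above the median intensity had a median difference of −0.047 as a whole, and 7.19% of them were lower and 1.61% higher. Of the 8 genes of the list in this range 2 were lower. The call of Trim71 was lost without virgin mouse 2 or 6 (log2 differences of −0.15 and −0.15). The call of Piwil2 was lost in 7 of the 12 fits that left out 1 array and in 5 of 9 other settings, which were quantile normalization, median subtraction, cyclic loess, robust estimation with a variance trend and the replicate block. Its log2 difference was −0.072 after quantile normalization and −0.067 after cyclic loess.

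**Figure D4:**
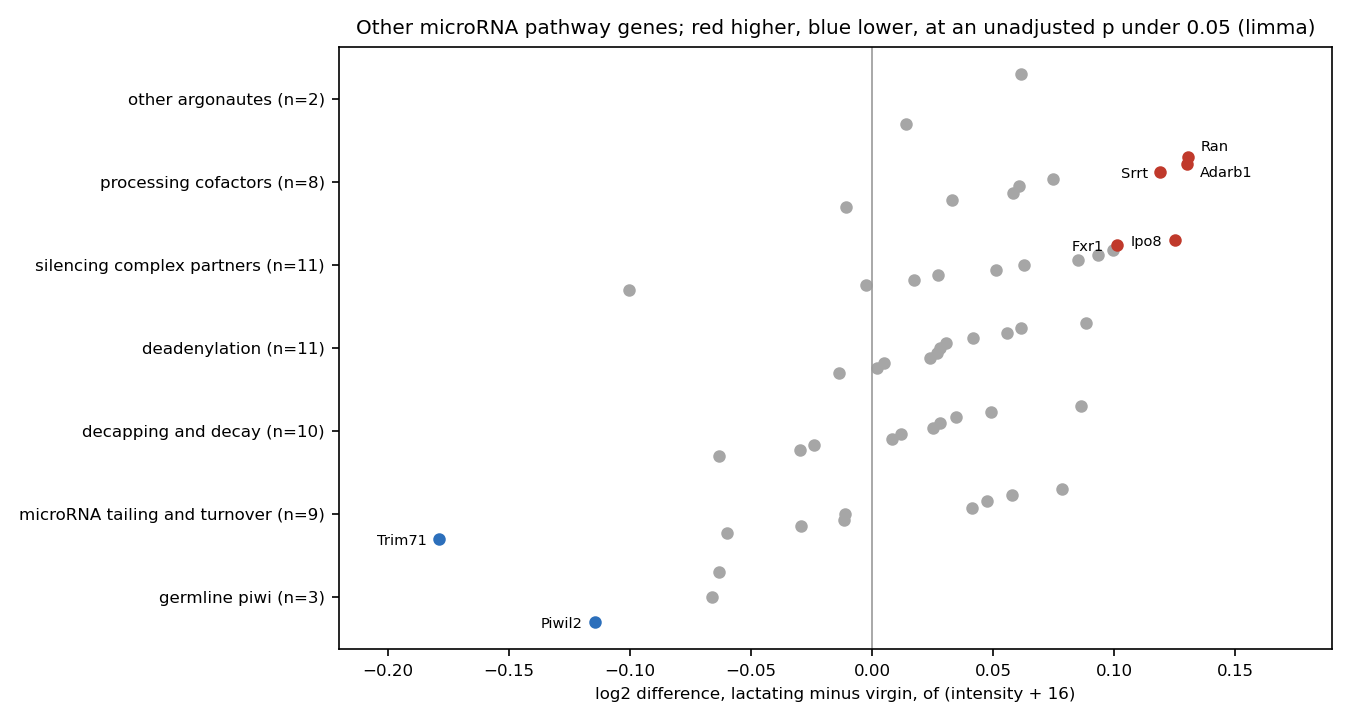
Log2 difference of (intensity + 16), lactating minus virgin (horizontal axis), of 54 other pathway genes by role, 1 point per gene, red for higher and blue for lower where the limma p before adjustment was under 0.05, grey for the rest. The red points are Ran, Adarb1, Srrt, Ipo8 and Fxr1, the blue points Trim71 and Piwil2, and no deadenylation or decapping gene passed.

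The arrays had median intensities of 319.6 to 339, and the log2 values of any pair correlated at 0.987 to 0.994. The methods of the study give the dissection as whole septum and the deposited protocol as its lateral part. The septal genes Zic1, Zic2 and Zic4 summed to 9367 to 11288 in lactating mice and 9246 to 11010 in virgin mice, counting for each gene the cluster with the highest mean intensity, and 0 of these 3 clusters passed an unadjusted p under 0.05 from limma. A second, dimmer cluster of Zic4 was lower in lactating mice, at 211.5 to 263 against 237 to 300.2, with a log2 difference of −0.16 ± 0.065 (SE; limma unadjusted p = 0.0306, adjusted p = 0.619). Markers of excitatory neurons of the cortex and hippocampus summed to 2081 to 7518 in lactating mice, lactating mouse 4 being the highest, and to 2223 to 3775 in virgin mice. Markers of the striatum summed to 7005 to 11711 in lactating mice and to 9637 to 12066 in virgin mice. All 4 had a lower mean in lactating mice, with log2 differences from −0.23 for Rgs9 to −0.083 for Drd2. Of these, 0 passed an unadjusted p under 0.05 from limma. With 1 cluster per gene counted, 2 of 48 markers of 13 cell types or regions were higher (Clic6 and Alas2) and 3 were lower (Cx3cr1 and P2ry12 of microglia and Ccdc153 of ependyma), where 7.95% of all clusters passed in either direction. The groups did not overlap for Cx3cr1, at 778 to 814 in lactating mice and 819 to 1013 in virgin mice, nor for 0.394% of all clusters. The other microglia markers did not pass, with log2 differences of 0.030 for Aif1, −0.030 for Csf1r and −0.037 for C1qa. Summed microglia markers were 3005 to 3313 in lactating mice and 3126 to 3947 in virgin mice. Their part in the differences of the pathway genes was not tested.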

How the data were processed

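Total RNA from the septum of 6 lactating and 6 virgin mice was hybridised to GeneChip Mouse Gene 1.0 ST arrays, 1 array per mouse. The authors summarised and normalized the probes with PLIER and a GC bin background correction in Affymetrix Power Tools 1.12.0, and the deposited values are these intensities on a linear scale. The genome build behind the array's clusters is not given in the sources used here. Groups came from the sample labels.

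From the deposited intensities, log2(intensity + 16) was compared between groups with limma 3.58.1 in R 4.3.3 (lmFit and eBayes, two-sided) over all 35556 clusters without a filter, with Benjamini-Hochberg adjustment over all of them. Of the clusters, 21789 carry 1 gene symbol, and 99.6% of those have an identifier in the RefSeq table for GRCm38.p6. A total of 496 clusters average below 16, so their differences are compressed. An exact permutation test was added for single clusters. The number of arrays limits the precision. The fit was tested on simulated data. RNA was extracted in matched pairs that are not identified. After the group mean of each cluster was subtracted, the deviations of same-numbered arrays correlated above 0.1 in 2 of 6 numbers (−0.027 to 0.250). No block was therefore used in the main fit.

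The members and the lists (55 other pathway genes, of which Hnrnpa1 had no cluster of its own, and 54 markers) were chosen with earlier results of these data known. Named were all members, the pathway genes with an unadjusted p under 0.05, and the 5 genes most like the members. Genes of the same pathway (Ago3, Ago4, Fmr1, Tsn, Cnot9, Xrn1, Dcp2) and markers were named outside that rule. The alternatives tried were values left linear, 1 in place of 16 before log2, filters on intensity and on annotation, quantile, median and cyclic loess normalization, weights per array, robust estimation with a variance trend, the replicate block, the mean over a gene's clusters and each array left out.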

Additional observations from a re-analysis of the deposited data

Results flagged for a closer look

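Within a group of 6 mice, 1 mouse stood apart from the others in 4 of 38 groups checked, the gap to its nearest neighbour taking up an unusual share of the group's range, where chance alone gives about 1.9. For Drosha, virgin mouse 6 was the lowest at 1592, against 1685 for the next (share of the range 0.653). For Dicer1, virgin mouse 3 was the highest at 1406, against 1331 (0.743). For Tnrc6c and Piwil2, virgin mouse 2 was the highest, at 1444 against 1341 (0.665) and at 224 against 203 (0.632).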

How the results depend on the processing

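No member cluster reached an unadjusted p under 0.05 from limma under any of 22 alternatives, and the smallest p of a member was 0.122, for Drosha. The counts over all clusters, 1160 higher and 1668 lower, changed more: 501 were lower among clusters above the median intensity, and 2027 were higher and 992 lower after the median of each array was subtracted. Leaving out 1 array gave 782 to 1783 higher and 1054 to 2599 lower, with 1082 lower without lactating mouse 3, 1054 without virgin mouse 2, 2599 without virgin mouse 3 and 1783 higher without virgin mouse 4. After adjustment, 1 cluster passed with linear intensities, above-median clusters, clusters with 1 symbol, quantile normalization and cyclic loess, and 0 otherwise. Of the pathway genes, 1 was lower with median subtraction or the replicate block. With above-median clusters, Trim71 and Piwil2 were not among the 46 genes fitted, so the 1 that was lower there was another gene. The count does not name it. In the main fit Tsn was the nearest to the threshold among lower genes above the median intensity (limma unadjusted p = 0.0512). When 1 array was left out, 0 to 3 were lower and 4 to 6 higher. The count of lower genes was 0 without virgin mouse 2, and 1 without lactating mouse 2 or 4 or virgin mouse 1 or 6. The other settings gave 4 to 7 higher, with 7 higher and 3 lower on linear intensities, and 3 lower also with quantile normalization, cyclic loess and clusters with 1 symbol. With the replicate number as a block, 1159 clusters were higher and 2035 lower, and 0 members and 5 pathway genes passed as higher; the numbers are not shown to pair the samples. Member differences that changed sign stayed small. With quantile normalization they were −0.0107 for Xpo5, −0.000236 for Dicer1, 0.0259 for Tarbp2 cluster 10544497, −0.00372 for Ago1 and −0.0207 for Ago2 cluster 10429327. With cyclic loess they were −0.0105, −0.00252, 0.0330, −0.00460 and −0.0207 in that order. Median subtraction gave 0.00848 for Tarbp2 cluster 10544497, 0.0153 for Tnrc6b and 0.00167 for Tnrc6c. Array weights gave 0.00525 for Tarbp2 cluster 10544497, −0.00475 for Ago2 cluster 10429327 and 0.000145 for Tnrc6b. Leaving out 1 array gave −0.00777 to 0.0388 for Xpo5, −0.0417 to 0.0252 for Tarbp2 cluster 10544497, −0.0115 to 0.0203 for Ago2 cluster 10429327, −0.0275 to 0.0122 for Tnrc6b and −0.0426 to 0.00279 for Tnrc6c. The cause was not tested. Dim clusters carry the larger errors.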
